A study of Mus musculus with 10 samples.

Results

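The matrix metalloproteases (MMPs), the ADAM and ADAMTS proteases, the ADAMTS-like proteins and the tissue inhibitors of metalloproteases (TIMPs) were followed through the smooth muscle and mucosa of the mouse intestine. Members were all gene symbols of these families by name, and 70 of the 19214 genes in the data matched. They were 20 MMP, 22 ADAM, 19 ADAMTS and 5 ADAMTS-like genes and 4 TIMPs. The value of a member is its FPKM (fragments scaled by transcript length and by the mapped fragments of the library) summed over all its transcript variants, so that levels of different genes are per length.

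There were 10 RNA-seq libraries from C57BL/6 mice of 4 weeks, 1 for each condition, with no replicates. Unsorted smooth muscle (SM) tissue, sorted smooth muscle cells (SMCs), sorted interstitial cells of Cajal (ICC, the pacemaker cells of gut muscle) and sorted PDGFRα+ cells (fibroblast-like interstitial cells) came from jejunum and from colon. Unsorted colonic mucosa and PDGFRα+ cells sorted from it completed the set. All mice were heterozygous for a reporter: SMCs came from smMHCCre-eGFP/+ mice, ICC from KitcopGFP/+ mice, and PDGFRα+ cells and mucosa from PdgfraeGFP/+ mice. The labels put both SM tissues under KitcopGFP/+, while the study's methods describe muscle of the smMHC line. The smMHC reporter is driven by the Myh11 promoter, which is active in smooth muscle of vessels as well as of the gut wall, and both other reporters sit in the gene they report, which leaves a single intact copy of Kit or Pdgfra. Sorted SMCs of many mice were pooled before sequencing.

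MMPs are secreted or membrane-bound zinc proteases that cut collagens, proteoglycans and other matrix proteins, and TIMPs block them. ADAMs are membrane proteins that release the outer part of growth factors, cytokine receptors and Notch, although some have lost their protease activity and act in adhesion. ADAMTS proteases are secreted and cut procollagens and large proteoglycans, and ADAMTS-like proteins share their binding modules but have no protease domain. In the gut wall these families are known for turnover of the matrix around muscle and crypts and for tissue repair.

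Every ratio compares a pair of single libraries, which allows no test. A ratio is log2 of FPKM + 1 over FPKM + 1. A member entered a comparison when it reached 1 FPKM in either library, and it was counted as higher or lower at a ratio of 4-fold. The same rule was run over all genes, and the percentage of all genes that passed is given as the background. In bulk RNA, fewer cells of a type and less RNA per cell cannot be told apart.

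Markers set the limits of several libraries. The library labelled jejunal PDGFRα+ cells went against its label: its 3 PDGFRα+ cell markers summed to 62.4 FPKM against 84.2 FPKM in its tissue, with Pdgfra at 34.0 against 57.0 FPKM and P2ry1 at 7.09 against 3.62 FPKM. The 7 SMC markers stayed near tissue in it, with sums of 19554 against 21345 FPKM. So did 6 neuronal markers, at 317 against 253 FPKM, and 3 mesothelial markers, at 222 against 215 FPKM. Sums were higher for 5 epithelial (83.1 against 10.8 FPKM), 4 endothelial (45.5 against 24.3 FPKM) and 6 macrophage markers (133 against 76.5 FPKM). The 5 fibroblast markers summed to 2680.2 against 1493 FPKM. Of these Dcn, Lum and Dpt were higher, while Col1a1 (325 against 378 FPKM) and Col1a2 (280 against 391 FPKM) were lower. Its values are given under its label, and nothing about PDGFRα+ cells is read from it. The colonic ICC library held Kit at 792 FPKM but also Pdgfra at 42.2 FPKM, against 5.63 FPKM in jejunal ICC. The mucosal PDGFRα+ library held the epithelial gene Epcam at 144 FPKM, which is 24.2% of the level in mucosa, and the summed level of 4 pancreatic enzyme genes was 15.3 FPKM in jejunal SMCs and 53.5 FPKM in jejunal ICC, against 0 in jejunal tissue. The 3 neutrophil markers summed to no more than 0.689 FPKM in any library. Members took 0.0948% of all FPKM in mucosa and between 0.151% and 0.663% in the other 9 libraries.

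Of the 70 members, 31 reached 10 FPKM in at least 1 library, and 4 more were named because they differed 4-fold between a sorted population and its own tissue at 3 FPKM or more. A further 22 of the members peaked between 1 and 10 FPKM, and 17 stayed under 1 FPKM everywhere. Levels of a gene are given below in a fixed order: SM tissue, SMCs, ICC and the PDGFRα+ library of the jejunum, the same for the colon, then mucosa and mucosal PDGFRα+ cells. Jejunal, colonic and mucosal libraries were quantified as 3 separate tables, and levels set across them carry that limit.

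**Figure D1:**
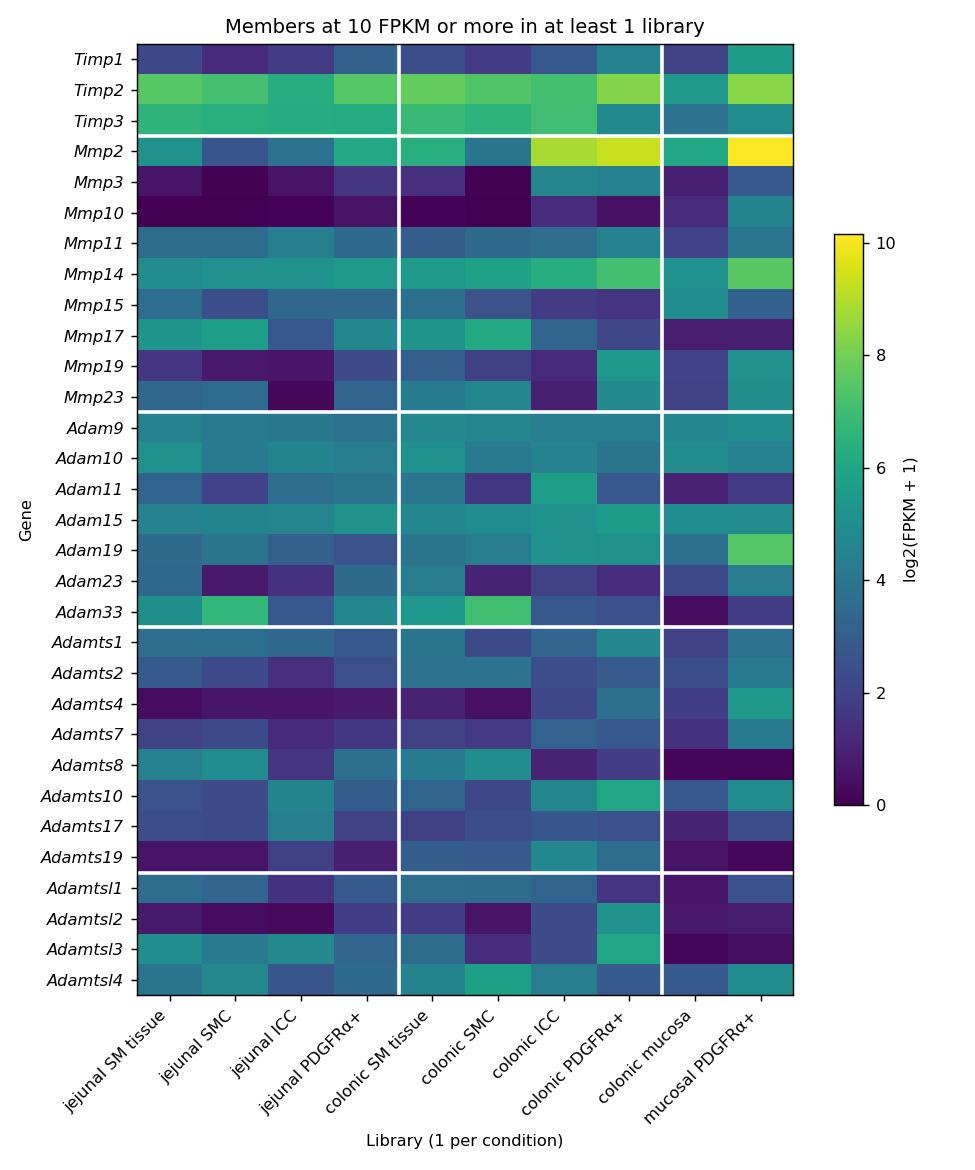
Level of the 31 members that reached 10 FPKM in at least 1 library, as log2(FPKM + 1). Rows are genes grouped by family, columns are the 10 libraries, and white lines separate families and the 3 tables. Mmp2 is brightest in mucosal PDGFRα+ cells (1138 FPKM), and Adam33 in both SMC libraries (104 and 135 FPKM).

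Muscle-layer PDGFRα+ cells of the colon and PDGFRα+ cells of the colonic mucosa held the most members above their tissue. In mucosal PDGFRα+ cells 15 of the 41 members compared were at least 4-fold higher than in mucosa, where 5.5% of all genes were, and 0 were lower, against 1.64%. The 15 were Adam19, Adam23, Adamts3, Adamts4, Adamts7, Adamts10, Adamts14, Adamtsl4, Mmp2, Mmp10, Mmp14, Mmp19, Mmp23, Timp1 and Timp2. The median log2 ratio of the members was 1.80, and that of all genes was −0.10. The fibroblast markers summed to 4782 FPKM in these cells and 481 FPKM in mucosa, and the 5 epithelial markers to 727 and 2702 FPKM, and their part in the 15 ratios was not tested. In colonic PDGFRα+ cells 8 of 46 members were higher than in SM tissue (Adamts4, Adamts10, Adamtsl2, Adamtsl3, Mmp2, Mmp3, Mmp19 and Timp1), against 2.08% of all genes. In the same comparison 7 members were lower (Adam22, Adam23, Adam33, Adamts8, Adamtsl1, Mmp15 and Mmp17), against 6.18% of all genes, and the members' median log2 ratio was 0.17 beside −0.11 for all genes.

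Members of ICC differed from tissue in both directions in the colon and only downwards in the jejunum. In colonic ICC 2 of 44 members were higher (Mmp2 and Mmp3), against 1.43% of all genes, and 4 were lower (Adam23, Adam33, Adamts8 and Mmp23), against 4.4%. In jejunal ICC 0 of 39 members were higher, against 1.62%, and 5 were lower (Adam33, Adamts8, Adamtsl1, Mmp17 and Mmp23), against 2.72%. The members' median log2 ratio was −0.30 in colonic and −0.51 in jejunal ICC, beside 0.14 and 0.04 for all genes.

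SMCs had no member 4-fold above their tissue, but 0 of the 7 SMC markers were 4-fold above it either. The median log2 ratio of these markers was 0.92 in jejunal and 1.28 in colonic SMCs. In jejunal SMCs 0 of 39 members were higher, against 0.297% of all genes, and 2 were lower (Adam23 and Mmp2), against 3.48%. In colonic SMCs 0 of 43 members were higher, against 0.149%, and 4 were lower (Adam11, Adam23, Adamtsl3 and Mmp2), against 5.3%. The members' median log2 ratios of −0.21 and −0.29 lay close to those of all genes, −0.15 and −0.32. The library labelled jejunal PDGFRα+ cells differed from its tissue in 1 of 42 members, Mmp7, which was higher, against 0.913% of all genes, and 0 were lower, against 0.14%.

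**Figure D2:**
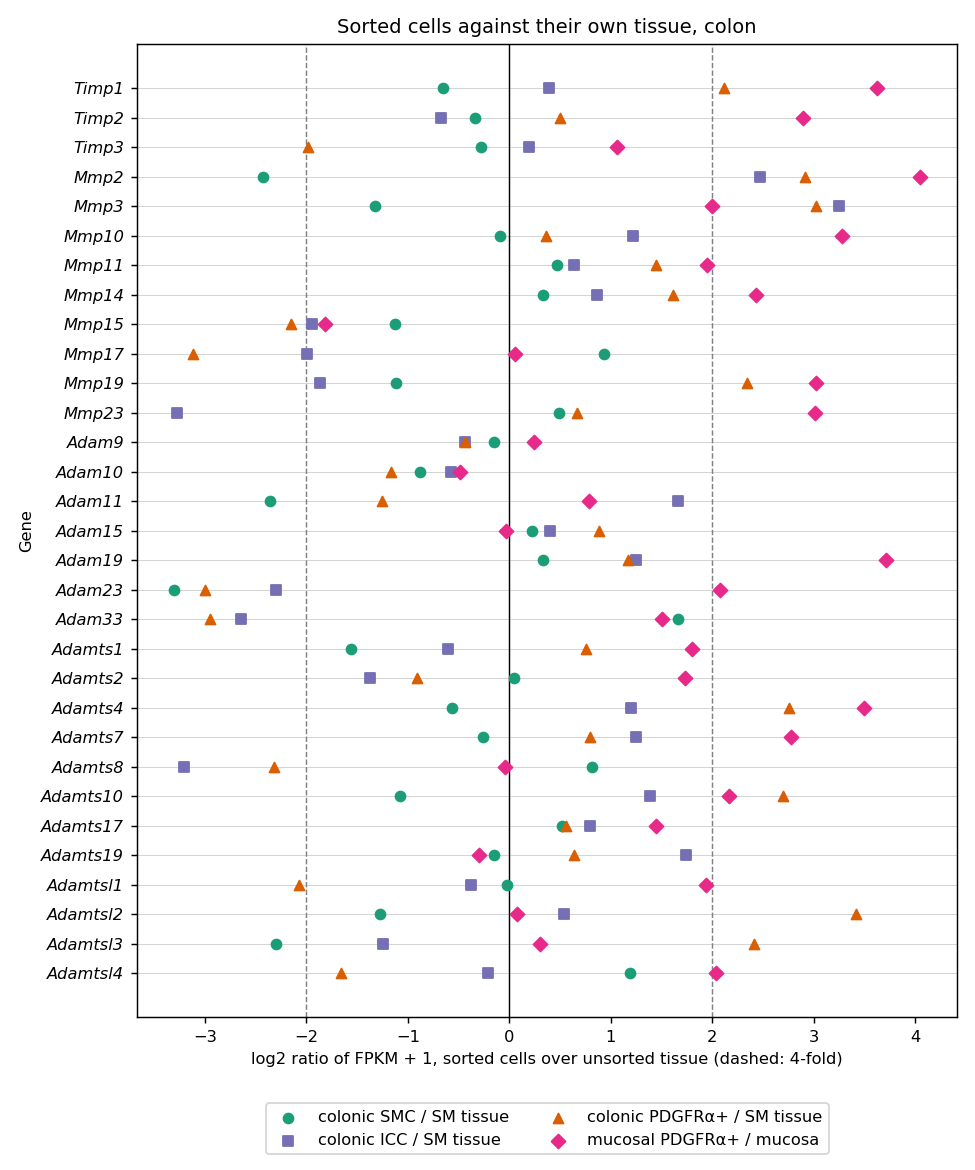
Log2 ratio of FPKM + 1 of each member that reached 10 FPKM, sorted cells over their own unsorted tissue, in the colon and its mucosa. Each point is a pair of single libraries, and dashed lines mark 4-fold. Mmp2 lies at −2.43 for SMCs and at 2.47, 2.92 and 4.05 for ICC, colonic and mucosal PDGFRα+ cells.

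The families added up differently across the libraries. The summed MMP level was 147, 125, 86.8 and 183 FPKM in the jejunal libraries, 216, 189.6, 591 and 878 FPKM in the colonic ones, and 153 and 1448 FPKM in mucosa and its PDGFRα+ cells. The summed TIMP level was 283, 221, 157 and 259.9 FPKM in the jejunum, 333, 264, 269.5 and 356 FPKM in the colon, and 60.1 and 399.55 FPKM in the mucosal pair. The ratio of TIMP to MMP transcripts was therefore above 1 in all 4 jejunal libraries and in colonic tissue and SMCs, from 1.39 to 1.93, and lay between 0.276 and 0.456 in the other 4 libraries. A ratio of transcript sums is not a ratio of protein or of activity. Timp2 was the most abundant member in the 6 libraries of the first kind, and Mmp2 in the 4 of the second. Mmp2 alone made up 77.3%, 70.9% and 78.6% of the MMP sum in colonic ICC, colonic PDGFRα+ cells and mucosal PDGFRα+ cells. Without Mmp2 their MMP sums were 134, 256 and 309 FPKM, below their TIMP sums, so their ratio under 1 rested on that gene. In mucosa the MMP sum without Mmp2 was 85.0 FPKM, still above its TIMP sum.

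**Figure D3:**
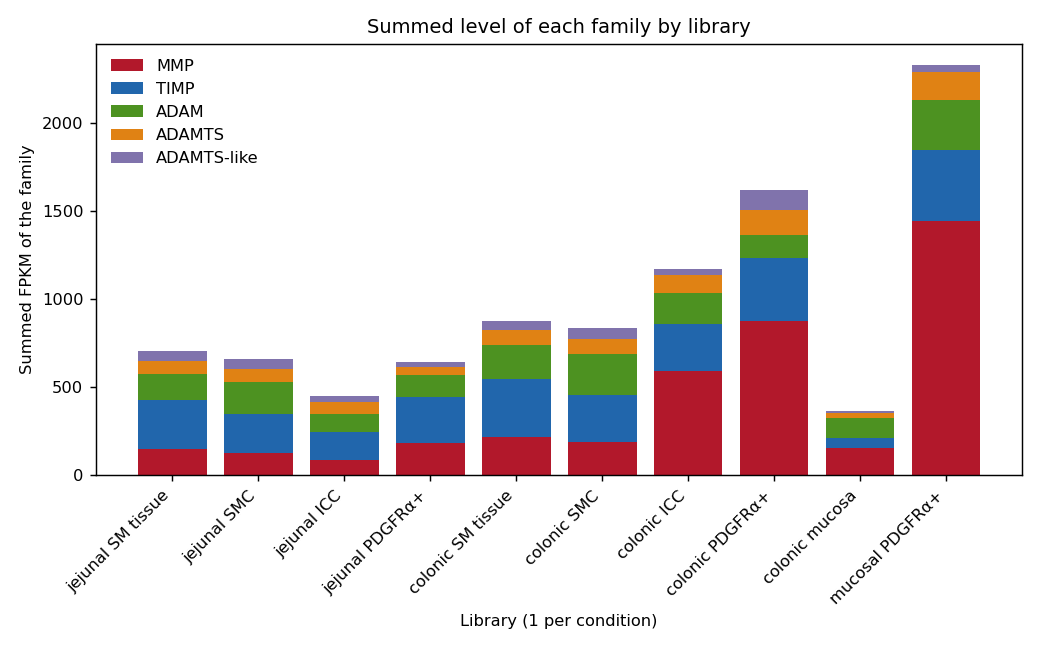
Summed FPKM of the MMP, TIMP, ADAM, ADAMTS and ADAMTS-like members in each of the 10 libraries, as stacked bars from 0. The MMP part grows from 153 FPKM in mucosa to 1448 FPKM in mucosal PDGFRα+ cells and is 591 and 878 FPKM in colonic ICC and PDGFRα+ cells.

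Mmp2 encodes gelatinase A, a secreted protease that cuts denatured collagen and basement membrane collagen (chr8:95351226-95377321, mm9, plus strand). Mmp2 stood at 36.7, 5.64, 12.9 and 68.7 FPKM in the jejunal libraries, at 81.5, 14.3, 457 and 622 FPKM in the colonic ones, and at 67.9 and 1138 FPKM in the mucosal pair. SMCs of both organs held the lowest level of their table, and colonic ICC and both colonic PDGFRα+ libraries stood far above every other library. The log2 ratio to tissue was −2.50 in jejunal and −2.43 in colonic SMCs, and 2.92 in colonic and 4.05 in mucosal PDGFRα+ cells. ICC went opposite ways, with a log2 ratio of −1.44 in the jejunum and 2.47 in the colon. Mmp2 made up 4.50% of the summed MMP level in jejunal SMCs and 78.6% in mucosal PDGFRα+ cells.

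Markers of PDGFRα+ cells and fibroblasts differed between the ICC libraries in the same direction as Mmp2, but not between colonic ICC and tissue. The 3 PDGFRα+ cell markers (Pdgfra, Kcnn3 and P2ry1), none at 0, summed to 8.99 FPKM in jejunal ICC, 53.2 FPKM in colonic ICC and 576 FPKM in colonic PDGFRα+ cells. The 5 fibroblast markers summed to 285, 1739 and 10869.8 FPKM in the same libraries. In colonic SM tissue both sums were above those of colonic ICC, at 85.6 and 2353 FPKM, while Mmp2 was lower in tissue. As a percentage of its level in colonic PDGFRα+ cells, colonic ICC held 73.4% of Mmp2, 18.4% of Pdgfra, 9.60% of the fibroblast gene Dpt and 2.48% of Kcnn3. The part of these cells in the ICC level of Mmp2 was not tested. The other gelatinase gene, Mmp9, reached no more than 1.74 FPKM in any library.

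Timp2 encodes an inhibitor that also joins MMP14 and the proenzyme of MMP2 in the complex that activates MMP2. Timp2 (chr11:118158844-118216725, mm9, minus strand) stood at 182, 136, 78.4 and 177 FPKM in the jejunum, 215, 169.6, 134 and 305 FPKM in the colon and 42.6 and 323 FPKM in the mucosal pair. The lowest level in the muscle layer, that of jejunal ICC, was above that of mucosa. The log2 ratio was 2.89 in mucosal PDGFRα+ cells over mucosa, and between −1.21 and 0.50 for the sorted muscle-layer cells over their tissue.

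Timp3 encodes the inhibitor that binds to matrix and also blocks ADAM17 and ADAMTS proteases. Timp3 stood at 96.5, 83.4, 76.3 and 74.5 FPKM in the jejunum, 113, 92.5, 129 and 27.7 FPKM in the colon and 13.6 and 29.4 FPKM in the mucosal pair. It was level across the jejunal libraries, highest in colonic ICC, and lower in colonic PDGFRα+ cells than in their tissue by a log2 ratio of −1.98, just short of 4-fold. Exons of Timp3 overlap exons of Syn3 on the other strand, and reads of an overlapping pair cannot be told apart where strand is not stated to have been used.

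Timp1 encodes an inhibitor of secreted MMPs. Timp1 stood at 3.66, 1.31, 2.47 and 7.84 FPKM in the jejunum, 4.31, 2.37, 5.96 and 21.9 FPKM in the colon and 2.88 and 47.0 FPKM in the mucosal pair. Both PDGFRα+ libraries of the colon stood above all others, with log2 ratios of 2.11 over SM tissue and 3.63 over mucosa. Timp4 reached no more than 1.06 FPKM in any library.

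Of the membrane-type MMPs, Mmp14 encodes MT1-MMP, which cuts fibrillar collagen at the cell surface and activates MMP2. Mmp14 stood at 30.9, 34.5, 35.2 and 42.6 FPKM in the jejunum, 43.6, 55.0, 80.1 and 136 FPKM in the colon and 33.6 and 185 FPKM in the mucosal pair. No library was below the 30.9 FPKM of jejunal tissue, and the order within the colon was tissue, SMCs, ICC and PDGFRα+ cells. The log2 ratio of mucosal PDGFRα+ cells over mucosa was 2.43, and that of colonic PDGFRα+ cells over SM tissue was 1.62, under 4-fold.

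Mmp17 encodes a membrane-type MMP held by a lipid anchor, and its pattern was the reverse. Mmp17 (chr5:130090067-130114146, mm9, plus strand) stood at 37.0, 48.8, 5.71 and 25.7 FPKM in the jejunum, 37.2, 72.0, 8.59 and 3.41 FPKM in the colon and 0.810 and 0.874 FPKM in the mucosal pair. SMCs were highest in both organs, and mucosa and its PDGFRα+ cells were both under 1 FPKM. The log2 ratio of SMCs over tissue was 0.39 in the jejunum and 0.93 in the colon. ICC were lower than tissue by a log2 ratio of −2.50 and −1.99, and colonic PDGFRα+ cells by −3.11.

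Mmp15 encodes another membrane-type MMP and was the only MMP at 10 FPKM or more whose highest level was in mucosa. Mmp15 stood at 11.9, 4.47, 9.55 and 9.86 FPKM in the jejunum, 12.3, 5.09, 2.45 and 2.00 FPKM in the colon and 30.1 and 7.85 FPKM in the mucosal pair. Colonic PDGFRα+ cells were below their tissue by a log2 ratio of −2.15. The epithelial marker Epcam was likewise highest in mucosa, at 595 FPKM against 144 FPKM in mucosal PDGFRα+ cells, and its link with Mmp15 was not tested. Mmp16, a further membrane-type MMP gene, reached 4.85 FPKM in jejunal SMCs. Mmp24 reached 1.46 FPKM at most, and Mmp25 stayed under 1 FPKM.

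The stromelysins are secreted proteases with a wide range of matrix substrates. Mmp3 (stromelysin-1) stood at 0.496, 0.0331, 0.445 and 2.04 FPKM in the jejunum, 1.62, 0.0457, 23.9 and 20.3 FPKM in the colon and 0.804 and 6.20 FPKM in the mucosal pair. Colonic ICC and colonic PDGFRα+ cells were at like levels, mucosal PDGFRα+ cells followed, and both SMC libraries were close to 0. The log2 ratio to SM tissue was 3.25 in colonic ICC and 3.02 in colonic PDGFRα+ cells, and that of mucosal PDGFRα+ cells over mucosa was 2.00, just under 4-fold. The level of Mmp3 in colonic ICC was 118% of that in colonic PDGFRα+ cells, and the 8 PDGFRα+ cell and fibroblast markers ranged from 2.48% to 36.9%. The part of these cells in the ICC level of Mmp3 was not tested.

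Mmp10 encodes stromelysin-2. It stood at 0.0277, 0, 0.0825 and 0.434 FPKM in the jejunum, 0.0632, 0, 1.47 and 0.366 FPKM in the colon and 1.47 and 23.0 FPKM in the mucosal pair. Mucosal PDGFRα+ cells were the only library with an appreciable level. The log2 ratio over mucosa was 3.28, and over colonic muscle-layer PDGFRα+ cells it was 4.13. Mmp13, a collagenase gene, reached 3.76 FPKM in mucosal PDGFRα+ cells and 2.36 FPKM in mucosa, and no more than 0.311 FPKM in the muscle layer. Mmp7, which encodes matrilysin, the protease that matures defensins in Paneth cells of the mouse small intestine, was at 3.71 FPKM in the library labelled jejunal PDGFRα+ cells and at no more than 0.957 FPKM elsewhere, and was not listed in the colonic table. That library also held the 5 epithelial markers at a sum of 83.1 FPKM, against 10.8 FPKM in jejunal tissue, and their part in the Mmp7 level was not tested.

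Mmp3, Mmp10, Mmp13 and Mmp7 lie within a cluster on chromosome 9 that also holds Mmp8, Mmp12 and Mmp27 among the members. Start windows (250 bases before to 50 after the annotated start, RefSeq, GRCm38.p6) were matched for 43 of the 70 members, and not for Mmp2, Mmp17, Mmp19, Adam33, Adamts4, Adamts8 or Adamts10. The AP-1 motif, spelled TGAGTCA or TGACTCA and the same pair of words on either strand, was found in the windows of 7 of the 43 members (Adam1b, Adam19, Mmp3, Mmp7, Mmp10, Mmp12 and Mmp13). That is 16.3% of matched members, beside 5.95% of the 27025 symbols and 5.20% of all 32851 windows of the same length. The TATA word TATAAA, searched on the gene's strand, was in 8 members (18.6%), beside 9.77% of symbols. Mmp3, Mmp7, Mmp10, Mmp12 and Mmp13 of the cluster carried both words. Outside the cluster the AP-1 word was found only in Adam1b and Adam19, and TATAAA only in Adamts1, Adamtsl2 and Mmp21. Both percentages of members thus rest largely on neighbouring genes of a single locus. The CArG box, the site of serum response factor, was in 0 of the 43 windows, beside 1.81% of symbols, which says only that its letters are not in these windows. A match is a description of the letters and was not tested as a site.

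The windows of Mmp3, Mmp10, Mmp13 and Adam19 are shown because each carries an AP-1 word and each gene was highest in sorted interstitial cells. Capitals mark the AP-1 word and any TATAAA. Each runs 5′ to 3′ on the plus strand, and the start lies 50 bases before its end.
Mmp3 (chr9:7445572-7445871): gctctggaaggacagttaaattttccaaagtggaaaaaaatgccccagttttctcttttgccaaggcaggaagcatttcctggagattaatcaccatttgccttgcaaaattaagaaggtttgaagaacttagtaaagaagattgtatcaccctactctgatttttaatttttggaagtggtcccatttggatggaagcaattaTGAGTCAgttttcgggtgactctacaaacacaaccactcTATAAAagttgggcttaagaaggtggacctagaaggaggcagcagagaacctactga
Mmp10 (chr9:7502092-7502391): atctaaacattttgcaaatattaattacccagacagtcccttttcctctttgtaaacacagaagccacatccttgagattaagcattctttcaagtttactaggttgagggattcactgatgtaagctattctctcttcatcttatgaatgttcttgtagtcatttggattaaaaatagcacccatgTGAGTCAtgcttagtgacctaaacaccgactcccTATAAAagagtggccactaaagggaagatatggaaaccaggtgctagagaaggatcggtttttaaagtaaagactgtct
Mmp13 (chr9:7272264-7272563): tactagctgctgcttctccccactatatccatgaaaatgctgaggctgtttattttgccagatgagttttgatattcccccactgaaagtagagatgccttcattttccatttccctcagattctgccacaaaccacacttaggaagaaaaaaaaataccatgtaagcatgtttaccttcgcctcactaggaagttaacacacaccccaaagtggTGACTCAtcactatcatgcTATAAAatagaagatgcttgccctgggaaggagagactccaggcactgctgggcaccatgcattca
Adam19 (chr11:46055734-46056033): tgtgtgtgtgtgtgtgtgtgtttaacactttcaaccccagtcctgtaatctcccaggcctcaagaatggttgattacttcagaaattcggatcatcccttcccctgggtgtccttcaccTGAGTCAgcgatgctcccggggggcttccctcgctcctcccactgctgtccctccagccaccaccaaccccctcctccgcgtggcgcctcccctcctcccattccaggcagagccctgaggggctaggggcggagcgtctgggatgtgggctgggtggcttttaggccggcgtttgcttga
The first base of the AP-1 word lies 46 bases before the start in Mmp3, 63 in Mmp10, 35 in Mmp13 and 131 in this window of Adam19. In Mmp3, Mmp10 and Mmp13 a TATAAA follows it, at 7, 29 and 16 bases before the start, and the Adam19 window holds none.

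Among the other MMPs, Mmp19 and Mmp23 set colonic PDGFRα+ cells apart from ICC. Mmp19 encodes a secreted protease of basement membrane proteins. Mmp19 stood at 2.07, 0.623, 0.548 and 4.06 FPKM in the jejunum, 7.34, 2.83, 1.29 and 41.4 FPKM in the colon and 3.17 and 32.8 FPKM in the mucosal pair. Only both colonic PDGFRα+ libraries exceeded 10 FPKM, at log2 ratios of 2.35 over SM tissue and 3.02 over mucosa. In colonic ICC the log2 ratio was −1.86, so that Mmp19 did not share the high ICC level of Mmp2 and Mmp3. Exons of Mmp19 overlap those of 1110012D08Rik on the other strand.

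Mmp23 encodes a membrane-bound MMP without the usual haemopexin domain. Mmp23 stood at 9.23, 10.6, 0.156 and 8.59 FPKM in the jejunum, 17.1, 24.4, 0.864 and 27.7 FPKM in the colon and 2.96 and 31.0 FPKM in the mucosal pair. Where Mmp23 reached 1 FPKM, none of its level came from variants that the assembler classed as known transcripts. ICC of both organs were under 1 FPKM, with log2 ratios to tissue of −3.15 and −3.28, while SMCs and colonic PDGFRα+ cells were above tissue by less than 4-fold. Mmp11, which encodes stromelysin-3, stood at 11.0, 10.9, 19.3 and 10.0 FPKM in the jejunum, 7.01, 10.1, 11.5 and 20.8 FPKM in the colon and 3.12 and 14.8 FPKM in the mucosal pair, and no sorted population was 4-fold from its tissue. Exons of Mmp11 overlap those of Gm867 on the same strand. Mmp28 peaked at 3.97 FPKM in mucosa, and Mmp8, Mmp12, Mmp21 and Mmp27 stayed under 1 FPKM everywhere.

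Adam9, Adam10 and Adam15 were level across the libraries. Adam10, which encodes the main sheddase of Notch receptors, stood at 33.2, 16.5, 23.0 and 18.2 FPKM in the jejunum, 33.0, 17.5, 21.7 and 14.1 FPKM in the colon and 30.5 and 21.4 FPKM in the mucosal pair. Adam9 stood at 21.7, 17.7, 16.2 and 12.8, at 26.7, 23.8, 19.4 and 19.5 and at 26.0 and 30.9 FPKM in the same order. Adam15 stood at 21.7, 22.9, 23.9 and 35.4, at 25.5, 29.8, 33.8 and 47.7 and at 29.4 and 28.7 FPKM. These 3 genes were within 4-fold in all 12 comparisons, and with Timp2, Timp3 and Mmp14 they were the 6 members at 10 FPKM or more in all 10 libraries. Adam17, which encodes the sheddase of tumour necrosis factor, was far lower, between 1.22 and 4.23 FPKM.

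Adam19 encodes a protease that sheds neuregulins and is known from mesenchyme and muscle. Adam19 stood at 10.3, 13.8, 7.68 and 4.98 FPKM in the jejunum, 14.0, 18.0, 34.6 and 32.8 FPKM in the colon and 12.2 and 172 FPKM in the mucosal pair. Mucosal PDGFRα+ cells stood apart from all other libraries, by a log2 ratio of 3.71 over mucosa and 2.36 over colonic muscle-layer PDGFRα+ cells. Colonic ICC and PDGFRα+ cells were next and nearly equal, at log2 ratios of 1.24 and 1.17 over SM tissue.

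Adam33 encodes an active ADAM protease whose human gene is known from studies of asthma and airway smooth muscle. Adam33 stood at 32.0, 104, 5.74 and 25.1 FPKM in the jejunum, 42.1, 135, 5.88 and 4.57 FPKM in the colon and 0.276 and 2.63 FPKM in the mucosal pair. SMCs were highest in both organs. PDGFRα+ cells of the colon, both ICC libraries and the mucosal pair were all lower than either SM tissue. The log2 ratio of SMCs over tissue was 1.68 in the jejunum and 1.66 in the colon. This is under 4-fold but above the median of the 7 SMC markers, 0.92 and 1.28. The log2 ratio was −2.29 in jejunal ICC, −2.64 in colonic ICC and −2.95 in colonic PDGFRα+ cells. The 7 SMC markers summed to 37783 FPKM in jejunal and 58379 FPKM in colonic SMCs, and to between 2308 and 3294 FPKM in both ICC libraries and colonic PDGFRα+ cells.

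Adam33 was also assembled into more variants than any other gene in 5 libraries. Counting variants at 0.025 FPKM or more, Adam33 had 21, 24, 18 and 19 variants in the jejunal libraries, 25, 24, 14 and 12 in the colonic ones, and 6 and 12 in the mucosal pair. It ranked first among all genes in jejunal tissue, SMCs and the PDGFRα+-labelled library and in colonic tissue and SMCs, where the next gene had 17 to 20. The other members had at most 10 to 12 variants in each library, which was above Adam33 in mucosa and level with it in colonic PDGFRα+ cells, and the mean over all genes was 3.00 to 3.38. The count depends on the threshold: at 1 FPKM or more, 14 variants were counted in jejunal SMCs and 0 in either library of the mucosal pair.

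The tables listed 27 Adam33 variants in all, from 1342 to 6626 bases long. The assembler classed 2 as known transcripts and 25 as sharing a splice junction with one, and 23 were present in both SMC libraries. The 2 known transcripts made up 1.80% of the Adam33 level in jejunal and 2.41% in colonic SMCs. The most abundant variant, TCONS_00154152, is also the shortest, and stood at 10.2 and 27.6 FPKM in jejunal tissue and SMCs and at 14.0 and 38.5 FPKM in colonic tissue and SMCs. Of 20 variants present in both jejunal tissue and SMCs, 19 were higher in SMCs, and in the colon 21 of 22 were. Variants at 0 in either library of a pair are left out of these counts. TCONS_00168808 was at 1.21 and 2.44 FPKM in jejunal and colonic tissue and at 0 in SMCs. TCONS_00157150 (1.11 FPKM) and TCONS_00152728 (0.188 FPKM) were in colonic tissue and not in colonic SMCs. In SMCs but not in tissue were TCONS_00170040 and TCONS_00155416 in both organs, and TCONS_00157151 and TCONS_00167544 in the jejunum. The difference was thus spread over most variants present in both SMCs and tissue.

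**Figure D4:**
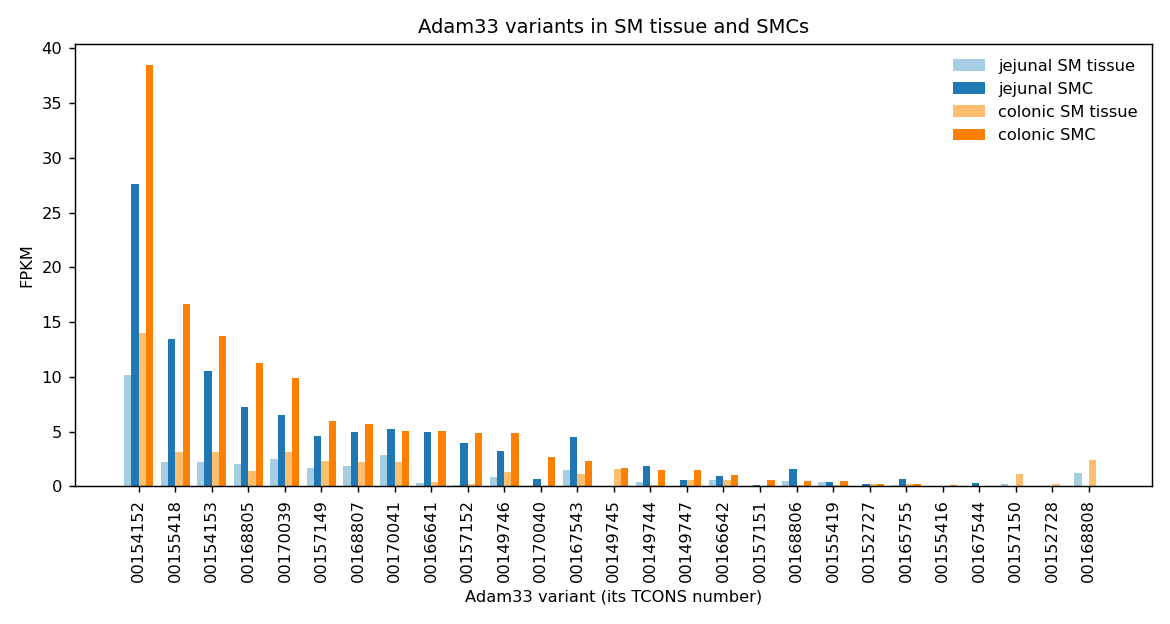
FPKM of each Adam33 variant in SM tissue and SMCs of jejunum and colon, as bars from 0 in order of the colonic SMC level. TCONS_00154152 leads in all 4 libraries, with 27.6 FPKM in jejunal and 38.5 FPKM in colonic SMCs.

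The variants began at 5 start sites named by the assembler. In SMCs a start site with 21 variants carried 39.1% of the Adam33 level in the jejunum and 39.0% in the colon, and the start site of TCONS_00154152 carried 26.5% and 28.5%. The shares were near those in tissue, where the same sites carried 40.0% and 31.7% in the jejunum and 40.3% and 33.3% in the colon. The locus in the deposited table (chr2:130865144-130889561, mm9) also carries Gfra4 under the same gene identifier and is wider than the gene annotated for Adam33. FPKM of overlapping variants are divided among them by estimation, so the sum is firmer than any single variant.

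Adam11, Adam22 and Adam23 encode ADAMs without protease activity that are known from neurons, and ADAM22 and ADAM23 bind the secreted LGI proteins. Adam23 stood at 9.46, 0.644, 1.76 and 10.3 FPKM in the jejunum, 18.6, 0.980, 2.97 and 1.45 FPKM in the colon and 3.68 and 18.7 FPKM in the mucosal pair. Sorted cells of the muscle layer were below their tissue, by log2 ratios of −2.67 and −3.30 in SMCs, −1.92 and −2.30 in ICC, and −3.00 in colonic PDGFRα+ cells. The 6 neuronal markers moved the same way, from 253 FPKM summed in jejunal tissue to 15.4 and 54.7 FPKM in its SMCs and ICC, and from 355 FPKM in colonic tissue to between 25.0 and 39.3 FPKM in its sorted cells. Mucosal PDGFRα+ cells held Adam23 at a log2 ratio of 2.08 over mucosa, while the neuronal markers there summed to 0.669 FPKM. The part of neurons in the Adam23 levels was not tested.

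Adam22 stood at 6.60, 2.16, 7.78 and 2.34 FPKM in the jejunum, 8.53, 3.72, 3.09 and 0.189 FPKM in the colon and 0.134 and 0.101 FPKM in the mucosal pair, and was lowest in both PDGFRα+ libraries of the colon and in mucosa. The log2 ratio of colonic PDGFRα+ cells over their tissue was −3.00. Adam11 stood at 8.77, 3.14, 11.4 and 14.1 FPKM in the jejunum, 15.0, 2.11, 49.8 and 5.70 FPKM in the colon and 0.895 and 2.27 FPKM in the mucosal pair. Colonic ICC were highest for Adam11, at a log2 ratio of 1.67 over tissue and 2.03 over jejunal ICC. The neuronal markers summed to 39.3 FPKM in colonic ICC against 355 FPKM in tissue, and their part in the Adam11 level was not tested. Among the LGI genes, Lgi2 was at 27.9, 10.7, 16.6 and 27.5 FPKM in the jejunal libraries and at 9.82, 1.69, 3.13 and 56.7 FPKM in the colonic ones.

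Several ADAMs, many of them known mainly from testis, were near 0. Adam2, Adam4, Adam5, Adam6b, Adam7, Adam18, Adam21, Adam28, Adam30, Adam32 and Adam1b did not reach 1 FPKM in any library. Adam8, known from leukocytes, peaked at 2.23 FPKM in mucosa. Adam12 peaked at 1.41 FPKM in mucosal PDGFRα+ cells.

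The hyalectanases among the ADAMTS proteases cut versican and aggrecan. Adamts4 stood at 0.256, 0.527, 0.514 and 0.644 FPKM in the jejunum, 1.01, 0.356, 3.61 and 12.5 FPKM in the colon and 2.73 and 41.1 FPKM in the mucosal pair. Both PDGFRα+ libraries of the colon were above all others, at log2 ratios of 2.75 over SM tissue and 3.50 over mucosa. The substrate gene Vcan stood at 25.0 FPKM in colonic and 31.3 FPKM in mucosal PDGFRα+ cells. Its level in colonic ICC was close to these, at 21.9 FPKM, where Adamts4 was at 3.61 FPKM. The aggrecan gene Acan did not exceed 0.220 FPKM in any library that lists it.

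Adamts8 had the opposite pattern. It stood at 20.7, 29.8, 1.94 and 12.2 FPKM in the jejunum, 17.1, 30.8, 0.956 and 2.61 FPKM in the colon and 0.127 and 0.0921 FPKM in the mucosal pair. Known transcripts made up 24.3% of its level in jejunal and 22.7% in colonic SMCs. SMCs were highest in both organs, with log2 ratios of 0.50 and 0.81 over tissue, and ICC were lower than tissue by log2 ratios of −2.89 and −3.21. With Adam33 and Mmp17, Adamts8 thus made up a set of 3 named members at 10 FPKM or more in both SMC libraries and below 10 FPKM in ICC, in colonic PDGFRα+ cells and in the mucosal pair. That set was picked after its values were seen.

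Adamts1, a hyalectanase gene also known from ovulation, stood at 11.3, 11.7, 9.64 and 5.96 FPKM in the jejunum, 14.3, 4.18, 9.05 and 24.8 FPKM in the colon and 2.92 and 12.6 FPKM in the mucosal pair, and no sorted population was 4-fold from its tissue. Of the other hyalectanase genes, Adamts5 reached 4.83 FPKM in colonic tissue, Adamts9 7.23 FPKM in jejunal tissue and Adamts15 6.27 FPKM in mucosa. Adamts20 reached 3.96 FPKM in colonic ICC and was not listed in the mucosal table.

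The procollagen N-proteinases remove the amino-terminal propeptide of fibrillar collagens. Adamts2 stood at 6.33, 3.70, 1.63 and 4.64 FPKM in the jejunum, 13.0, 13.5, 4.41 and 6.46 FPKM in the colon and 4.46 and 17.1 FPKM in the mucosal pair. Adamts3 stood at 1.08, 0.377, 1.03 and 0.536, at 1.72, 0.796, 5.80 and 2.21 and at 0.537 and 6.33 FPKM, and Adamts14 at 0.681, 0.0700, 0.353 and 0.449, at 0.899, 0.115, 0.340 and 3.04 and at 0.683 and 6.60 FPKM. All 3 were highest in mucosal PDGFRα+ cells, at log2 ratios over mucosa of 1.73 for Adamts2, 2.25 for Adamts3 and 2.18 for Adamts14. The collagen gene Col1a1 was at 1559 FPKM there, against 127 FPKM in mucosa, but was highest in colonic muscle-layer PDGFRα+ cells, at 2794 FPKM.

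Adamts7 and Adamts12 encode proteases that bind cartilage oligomeric matrix protein. Adamts7 stood at 3.00, 3.67, 1.30 and 2.17 FPKM in the jejunum, 2.91, 2.26, 8.27 and 5.77 FPKM in the colon and 1.73 and 17.7 FPKM in the mucosal pair, and its log2 ratio was 2.78 in mucosal PDGFRα+ cells over mucosa. Its exons overlap those of Tbc1d2b on the other strand. Adamts12 peaked in the same library, at 6.47 FPKM. The gene of their named partner, Comp, did not exceed 0.868 FPKM in any library.

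Adamts10 and Adamts17 encode proteases tied to fibrillin microfibrils through human connective tissue disease. Adamts10 stood at 5.04, 3.95, 22.0 and 6.87 FPKM in the jejunum, 8.56, 3.54, 24.0 and 61.1 FPKM in the colon and 5.77 and 29.4 FPKM in the mucosal pair. ICC of both organs and both PDGFRα+ libraries of the colon were all above 10 FPKM and every other library was below, with log2 ratios of 2.70 and 2.17 in the PDGFRα+ libraries and 1.93 and 1.38 in ICC. Adamts17 stood at 4.23, 4.04, 19.4 and 3.05 FPKM in the jejunum, 2.81, 4.45, 5.60 and 4.61 FPKM in the colon and 0.952 and 4.33 FPKM in the mucosal pair. Jejunal ICC stood out for Adamts17, at a log2 ratio of 1.97 over tissue, just under 4-fold, and colonic ICC did not, at 0.79.

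Adamts19 encodes a protease known from heart valves. It stood at 0.470, 0.497, 2.77 and 0.838 FPKM in the jejunum, 6.95, 6.17, 25.5 and 11.4 FPKM in the colon and 0.442 and 0.171 FPKM in the mucosal pair. It was the only member above 4-fold in colon over jejunum in all 3 of the tissue, SMC and ICC comparisons, at log2 ratios of 2.43, 2.26 and 2.81. In both organs ICC held the highest level. Adamts13, which encodes the protease of von Willebrand factor, peaked at 2.67 FPKM in jejunal ICC, Adamts18 at 3.82 FPKM and Adamts6 at 1.57 FPKM in mucosal PDGFRα+ cells, and Adamts16 stayed under 1 FPKM.

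The ADAMTS-like proteins are matrix components, and several bind fibrillin. Adamtsl3 stood at 30.5, 17.6, 26.4 and 9.07 FPKM in the jejunum, 11.1, 1.46, 4.11 and 63.2 FPKM in the colon and 0.0878 and 0.345 FPKM in the mucosal pair. It was the only member more than 4-fold lower in the colon than in the jejunum, by a log2 ratio of −2.92 in SMCs and −2.42 in ICC, and by −1.38 in tissue, which is under 4-fold. Within the colon PDGFRα+ cells were highest, at a log2 ratio of 2.41 over tissue, and mucosal PDGFRα+ cells were lower than these by −5.58.

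Adamtsl2, whose human gene is known from geleophysic dysplasia, stood at 0.654, 0.258, 0.188 and 2.69 FPKM in the jejunum, 2.48, 0.433, 4.03 and 36.2 FPKM in the colon and 0.639 and 0.730 FPKM in the mucosal pair. Colonic muscle-layer PDGFRα+ cells stood alone, at a log2 ratio of 3.42 over tissue, and mucosal PDGFRα+ cells were lower by −4.43. Both genes thus separated PDGFRα+ cells of the muscle layer from those of the mucosa, while Adam19 and Mmp10 did so in the other direction.

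Adamtsl4, whose human gene is known from displaced lenses, stood at 13.9, 26.7, 5.40 and 10.0 FPKM in the jejunum, 22.3, 51.9, 19.1 and 6.34 FPKM in the colon and 6.37 and 29.3 FPKM in the mucosal pair. SMCs were highest within each organ, at log2 ratios of 0.90 and 1.19 over tissue, and mucosal PDGFRα+ cells were at 2.04 over mucosa. Adamtsl1, which encodes punctin, stood at 11.3, 8.89, 1.82 and 6.32 FPKM in the jejunum, 11.4, 11.2, 8.54 and 1.95 FPKM in the colon and 0.529 and 4.85 FPKM in the mucosal pair, and was more than 4-fold below tissue in jejunal ICC and in colonic PDGFRα+ cells. Adamtsl5 peaked at 7.21 FPKM in mucosal PDGFRα+ cells.

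Between organs, the members were close in tissue and SMCs and further apart in ICC. In SM tissue 1 of 44 members was higher in the colon (Adamts19), against 0.616% of all genes, and 0 were lower, against 0.257%. In SMCs 1 of 38 was higher (Adamts19), against 0.556%, and 1 was lower (Adamtsl3), against 0.442%. In ICC 7 of 39 were higher (Adam11, Adam19, Adamts7, Adamts19, Adamtsl2, Mmp2 and Mmp3), against 2.26%, and 1 was lower (Adamtsl3), against 1.78%. The members' median log2 ratio was 0.29 in tissue, 0.15 in SMCs and 0.57 in ICC, beside 0.05, −0.14 and 0.13 for all genes. Colonic ICC also held more of the PDGFRα+ cell and fibroblast markers than jejunal ICC, as given with Mmp2, and their part in these 7 ratios was not tested.

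Between layers of the colon, mucosa held less of the families than SM tissue. Of 47 members 14 were at least 4-fold lower in mucosa, against 9.91% of all genes, and 0 were higher, against 7.8%, with a median log2 ratio of −0.96 for the members and 0.04 for all genes. The largest of these differences were those of Adam33 (−5.08), Mmp17 (−4.40) and Adamts8 (−4.00). The 7 SMC markers moved with them, from 25681 FPKM summed in SM tissue to 173 FPKM in mucosa, and their part was not tested. Between PDGFRα+ cells of mucosa and of muscle layer, 5 of 46 members were higher in mucosa (Adam19, Adam23, Adamtsl4, Mmp10 and Mmp13), against 6.34% of all genes, and 3 were lower (Adamts19, Adamtsl2 and Adamtsl3), against 3.11%. The members' median log2 ratio was 0.53, beside 0.09 for all genes. The 5 epithelial markers summed to 727 FPKM in mucosal and 5.58 FPKM in muscle-layer PDGFRα+ cells, the 5 fibroblast markers to 4782 and 10869.8 FPKM and the 3 PDGFRα+ cell markers to 244 and 576 FPKM, and their part was not tested. Mmp2, Timp1, Timp2 and Mmp14 were within 4-fold between both kinds of PDGFRα+ cells, at log2 ratios of 0.87, 1.07, 0.08 and 0.45. The mucosal table was quantified apart from the colonic one, and the same holds for jejunum and colon.

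Genes outside the families that activate, inhibit or clear these proteases were read from a list of 29. In mucosal PDGFRα+ cells 6 of 23 were at least 4-fold above mucosa (Papln, Pcsk6, Plat, Plau, Reck and Thbs2), against 5.5% of all genes, and 0 were below, against 1.64%. Plau encodes urokinase, which starts the plasmin route of MMP activation, and it was at 311 FPKM in mucosal PDGFRα+ cells, 14.8 FPKM in mucosa and no more than 5.11 FPKM in the other 8 libraries. Pcsk6 encodes a proprotein convertase and was at 145 FPKM, 9.23 FPKM and no more than 8.16 FPKM in the same libraries. Reck, a membrane-anchored inhibitor of MMPs, was at 25.3 FPKM against 3.23 FPKM, and Papln, a matrix gene whose fly counterpart inhibits a procollagen N-proteinase, at 13.9 FPKM against 0.881 FPKM.

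In colonic PDGFRα+ cells 4 of 26 of the list were above SM tissue (Lrp1, Rhbdf1, Serpine2 and Thbs2), against 2.08% of all genes, and 3 were below (Spock1, Spock3 and Tspan15), against 6.18%. Thrombospondin 2 (Thbs2) binds MMP2 for uptake by the receptor LRP1, and Thbs2 was at 602 FPKM in colonic PDGFRα+ cells against 55.9 FPKM in tissue, with Lrp1 at 511 FPKM against 107 FPKM. Serpine2, an inhibitor of thrombin and urokinase, was at 633 FPKM in these cells, 85.5 FPKM in tissue and 1.67 FPKM in mucosal PDGFRα+ cells. Colonic ICC had 2 of 25 above tissue (Papln and Serpine2), against 1.43% of all genes, and 2 below (Spock2 and Spock3), against 4.4%. Jejunal ICC had 0 of 25 above, against 1.62%, and 1 below (Spock3), against 2.72%.

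In jejunal SMCs 4 of 25 regulators were below tissue (Serpine2, Spock2, Spock3 and Thbs2), against 3.48% of all genes, and in colonic SMCs 7 of 25 were (the same 4 with Pcsk5, Pcsk6 and Spock1), against 5.3%. None was above tissue in either, where 0.297% and 0.149% of all genes were. Spock2 encodes a testican, a matrix proteoglycan, and was at 45.3 FPKM in jejunal tissue against 3.87 FPKM in SMCs, and at 44.6 FPKM in colonic tissue against 3.10 FPKM. Furin, the convertase that activates membrane-type MMPs and many ADAMs, lay between 20.9 and 34.4 FPKM in all 10 libraries. Bsg, an inducer of MMPs, lay between 161 and 367 FPKM.

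Of 29 known substrates and ligands, 8 of 20 were above mucosa in mucosal PDGFRα+ cells (Bgn, Fbln1, Fbn1, Fn1, Il6ra, Lum, Nid1 and Vcan), against 5.5% of all genes. In colonic PDGFRα+ cells 5 of 25 were above SM tissue (Bgn, Dcn, Fbln1, Lgi2 and Lum), against 2.08%. Fbln1, a fibulin of the matrix, was at 3666 FPKM in colonic PDGFRα+ cells against 207 FPKM in tissue, and Fn1, fibronectin, at 1034 FPKM in mucosal PDGFRα+ cells against 87.1 FPKM in mucosa. In jejunal SMCs 4 of 23 substrates were below tissue, against 3.48% of all genes, and in colonic SMCs 9 of 26 were, against 5.3%. None was above in either, where 0.297% and 0.149% of all genes were. In jejunal ICC 7 of 23 substrates were below tissue, against 2.72% of all genes, and in colonic ICC 5 of 25 were, against 4.4%. In both ICC libraries 0 were above tissue, where 1.62% and 1.43% of all genes were. Kitl, the ligand of KIT that ADAM proteases release from the membrane, was at 159.7 FPKM in colonic PDGFRα+ cells, against 59.7 FPKM in tissue. The labelled jejunal PDGFRα+ library had no regulator 4-fold from tissue and 2 of 24 substrates above it (Fbln1 and Lum), against 0.913% of all genes.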

How the data were processed

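RNA was measured by RNA-seq in 10 libraries, 1 per condition. Per the labels and the study's methods, the authors aligned reads to mm9 with TopHat 1.4.1 and assembled and quantified transcripts with Cufflinks 2.0.2. They deposited FPKM for each variant in 3 tables (jejunum, colon, mucosa), with variant length in bases as another deposited column. The files give no counts or depths, so no counting error was computed. Variants under 0.025 FPKM were set to 0, as in the study, and summed by gene symbol. A symbol not listed in a table was taken as 0. Ratios were log2((FPKM + 1)/(FPKM + 1)) in Python 3.11.15 with pandas 2.3.3, over genes at 1 FPKM or more in either library, with a threshold of 4-fold and no test. The rule named members at 10 FPKM or more in any library, and others called against their own tissue at 3 FPKM or more. Recovery of known changes was checked on simulated data. The loci of all 70 members overlapped the same gene in gencode vM1 (mm9). ADAMs without protease activity were taken from general knowledge, since no protein sequences were used here. Alternatives were a pseudocount of 0.1 FPKM, scaling to TPM, no filter, no variant cutoff, cutoffs of 0.1 and 1 FPKM for Adam33 variants, and known transcripts only. Members and lists were chosen with earlier results of these data known.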

Additional observations from a re-analysis of the deposited data

Results flagged for a closer look

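Mmp2 and Adamtsl3 went opposite ways in jejunum and colon, past 2-fold in both organs. For Mmp2 the log2 ratio of ICC over SM tissue was −1.44 in the jejunum and 2.47 in the colon, a difference of 3.91. For Adamtsl3 the log2 ratio of the PDGFRα+ library over SM tissue was −1.64 in the jejunum and 2.41 in the colon, a difference of 4.05, which rests on the jejunal library that went against its label. Each organ had 1 library per condition, so neither difference was tested.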

How the results depend on the processing

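No paired analysis was possible because each condition had 1 library. All 78 calls at 4-fold of the 35 named members held with a pseudocount of 0.1 FPKM, with TPM and with no variant cutoff. These settings could hardly undo a call, so this says little about how firm the calls are. A smaller pseudocount can only widen a ratio, and TPM values were larger beside the same pseudocount, which tends to widen it too. Dropping the cutoff changes only variants under 0.025 FPKM. The calls of Adamts5, Mmp13, Mmp16, the regulators and the substrates were not run. With the pseudocount of 0.1 FPKM more low genes passed 4-fold: 4 members were higher and 9 lower in jejunal ICC, 1 lower in the library labelled jejunal PDGFRα+ cells, 8 lower in colonic SMCs, 10 lower in colonic ICC, 12 lower in colonic PDGFRα+ cells and 26 higher in mucosal PDGFRα+ cells. Of colon over jejunum it gave 2 higher in tissue, 3 higher in SMCs, and 12 higher and 2 lower in ICC. It gave 2 higher in mucosa over colonic tissue, and 9 higher and 5 lower in mucosal over colonic PDGFRα+ cells. With TPM, which moved the median log2 ratio of all genes by −0.23 to 0.16, 4 members were higher in jejunal ICC, 1 lower in the labelled jejunal PDGFRα+ library, 9 lower in colonic ICC, 11 lower in colonic PDGFRα+ cells and 23 higher in mucosal PDGFRα+ cells. TPM also gave 12 higher and 2 lower in colonic over jejunal ICC, 2 higher in mucosa over colonic tissue and 5 lower in mucosal over colonic PDGFRα+ cells. The share of all genes past 4-fold was not computed with this pseudocount or with TPM. These counts therefore have no background and are not a result about the members. With no filter the members' median log2 ratio was 0.41 in mucosal PDGFRα+ cells over mucosa and −0.36 in mucosa over colonic tissue, because genes near 0 entered. Adam33 variants at 1 FPKM or more numbered 10, 14, 2 and 9 in the jejunal libraries, 13 in colonic tissue, 1 each in colonic ICC and PDGFRα+ cells, and 0 in the mucosal pair, and mucosa also had 0 at 0.1 FPKM. With known transcripts only, members at 10 FPKM or more numbered 10 in jejunal tissue, 8 in jejunal SMCs, 5 in the labelled jejunal PDGFRα+ library, 11 in colonic tissue and 9 in colonic SMCs. The files give no depth, and members near 1 FPKM are the least certain.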
